A study of Mus musculus with 2 samples.

Results

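Pre-osteoblast/chondrocyte is 1 of 7 classes that the authors gave to single stromal cells of mouse bone marrow. Its cells were taken here by that deposited label among the cells that passed the authors' filter, which gave 91 of 2847 cells: 25 of 948 in Stroma1 and 66 of 1899 in Stroma2. RNA was counted with inDrops, a method that seals single cells in droplets with barcoded primers. Mice of the strain labelled C56BL/6, aged 8 to 16 weeks, gave femurs, tibiae and pelvic bones. These bones were crushed and digested with collagenase and dispase, and cells without surface CD31, CD45 and Ter119, the markers of endothelial, blood and red cells, were sorted. There was 1 group of 2 samples, Stroma1 (libraries 1.1 and 1.2) and Stroma2 (libraries 2.1, 2.2 and 2.3), so no treatment or genotype could be compared, and the comparisons are between classes of the same samples. Whether each sample was pooled, or came from its own mice, is not in the labels. The p-values thus rest only on how far differences between classes vary between these 2 samples, with that spread estimated over the classes fitted together. The authors' classes may themselves rest on the genes compared here, so a difference describes the class and does not test it.

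Osteoblasts, which lay down bone, and chondrocytes, which lay down cartilage, both derive from mesenchymal progenitors. Osteoblasts secrete collagen type I and proteins that govern mineral deposition, among them osteopontin (Spp1), bone sialoprotein (Ibsp) and osteocalcin (Bglap). Late hypertrophic chondrocytes and cells of the osteoblast lineage make collagenase-3 (Mmp13), which cuts fibrillar collagen, while cartilage itself is built of collagen type II and aggrecan. The factor Runx2 is required for osteoblasts, and both Runx and AP-1 factors are known to act on the Mmp13 gene.

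The promoters of Mmp13 and Spp1 are shown because at least 1 count of each gene was found in most cells of the class. Both are RefSeq sequences of the 250 bases before the annotated start (build GRCm38.p6, + strand), written 5′ to 3′, in which capitals mark a RUNX motif (TGTGGT or its complement ACCACA), an AP-1 motif (TGANTCA) or a TATA box (TATAAA or TTTATA), none of which overlap. The Mmp13 window is chr9:7272264-7272513, and the Spp1 window is chr5:104434861-104435110.
Mmp13: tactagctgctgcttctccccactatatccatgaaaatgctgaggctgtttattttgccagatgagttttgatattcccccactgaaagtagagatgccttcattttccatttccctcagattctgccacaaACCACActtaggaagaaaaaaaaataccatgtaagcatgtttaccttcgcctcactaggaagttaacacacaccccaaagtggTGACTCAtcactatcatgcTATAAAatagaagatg
Spp1: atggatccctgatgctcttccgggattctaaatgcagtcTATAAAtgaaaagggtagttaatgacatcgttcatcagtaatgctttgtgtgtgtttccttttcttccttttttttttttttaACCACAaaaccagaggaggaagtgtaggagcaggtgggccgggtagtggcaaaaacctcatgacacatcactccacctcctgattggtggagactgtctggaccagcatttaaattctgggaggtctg
Both windows held 1 RUNX motif and 1 match to the TATA box letters, and that of Mmp13 also held 1 AP-1 motif. Matches were counted anywhere in a window. The TATA box letters lay close to the annotated start in Mmp13 but toward the far end of the window in Spp1. A second annotated start of Spp1 had none of these 3 motifs before it. Of 32851 windows of the same length in the RefSeq table, searched on both strands, 14.1% held the RUNX motif, 6.75% the AP-1 motif and 12.4% the TATA box. Windows were found for 11 of the 6 markers and the 12 genes highest against the other classes, not for Mmp9, Ccnd1 and Bmp3. Of their 15 windows 3 held the RUNX motif, 1 the AP-1 motif and 5 the TATA box, and a match is a description of the letters only.

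The class held 55218 counts in Stroma1 and 119724 in Stroma2, with medians of 2107 and 1440 counts and 894 and 763.5 genes per cell. Its share of passing cells was 2.64% in Stroma1 (exact Clopper-Pearson 95% interval 1.71 to 3.87, counting error only) and 3.48% in Stroma2 (2.70 to 4.40), and between 2.48% and 4.56% in each of the 5 libraries. Barcodes recurred between libraries of the same sample: in Stroma2, 25 of the 66 cells carried 1 of 15 barcodes found in another library of that sample, while in Stroma1 no cell of the class did. Among all passing cells of Stroma2, 435 cells carried 203 such barcodes. All copies had the same class for 9 of the 15 barcodes found in the class and for 173 of the 203. With each barcode kept once per sample 15 calls of named genes ended, and the share of the class was then 2.73% in Stroma1 and 3.06% in Stroma2. Mitochondrial transcripts took 7.74% and 6.37% of the counts of the class in the 2 samples, beside 7.23% and 6.90% in Osteoblast progenitor and 4.18% and 3.74% in Pro-osteoblast.

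The label was checked against marker lists on the scale used below, CPM, a gene's share of all counts of a class scaled with the TMM factors of edgeR, in the order Stroma1 and Stroma2. All 11 osteoblast markers had counts, and they summed to 45240 and 41570 CPM in the class, against 9428 and 13420 in Osteoblast progenitor and 704300 and 891800 in Pro-osteoblast. The deposited counts covered 13 chondrocyte markers, of which 6 had a count, while Acan, Col9a1, Col9a2, Col9a3, Matn3, Hapln1 and Ihh were at 0. The chondrocyte list summed to 425 and 244 CPM in the class, against 162 and 173 in Osteoblast progenitor, and 10510 and 14640 in Pro-osteoblast, so these markers give the word chondrocyte in the label little support. Of 8 osteoclast markers 4 had counts (578 and 1025 CPM, mostly Mmp9), and Ocstamp, Dcstamp, Atp6v0d2 and Oscar were at 0. Macrophage or neutrophil, endothelial and erythroid markers summed to at most 136 CPM in either sample, with Ptprc, Csf1r, Cdh5 and Kdr at 0.

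The classes tested are the class itself, Osteoblast progenitor, Pro-osteoblast, MSC, Adipocyte progenitor and Pre-adipocyte; the few Pro-chondrocyte cells are in no level, range or mean given here and are described apart. All 6 markers given for the class stood above the equally weighted mean of the other 5 classes tested, and 5 of the 6 also stood above Osteoblast progenitor. The exception was Wif1. Mmp13 (GRCm38.p6 chromosome 9, 7272514 to 7283333) had 21410 and 23050 CPM in the class, against 3335 and 4273 in Osteoblast progenitor, 149.9 and 161 in Pro-osteoblast and 500.3 to 1184 in the MSC and adipocyte classes. Differences are given from here on as log2 fold changes, the class over the class or mean it is set against. Mmp13 was 4.94 higher than the mean of the other classes (SE 0.09, edgeR adjusted p = 1.17e-61), 2.55 higher than Osteoblast progenitor and 7.16 higher than Pro-osteoblast. Spp1 (chromosome 5, 104435111 to 104441053) had 69500 and 78730 CPM, against 3379 and 5233 in Osteoblast progenitor and 3841 and 7056 in Pro-osteoblast. Both samples of the class lay above both samples of the other 5 classes tested for these genes, while Spp1 had more raw CPM in Pro-chondrocyte, as described below. Spp1 was 4.6 higher than the mean (SE 0.10, edgeR adjusted p = 1.39e-57), 4.12 higher than Osteoblast progenitor and 3.76 higher than Pro-osteoblast.

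Timp1, an inhibitor of matrix metalloproteinases (chromosome X, 20870166 to 20874737), had 1054 and 832 CPM, against 91.8 and 52.2 in Osteoblast progenitor and 187 and 376 in Pro-osteoblast, and was 3.95 higher than the mean (SE 0.23, edgeR adjusted p = 2.09e-26). Postn, the matricellular protein periostin (chromosome 3, 54359267 to 54391041), had 901 and 798 CPM, against 235 and 229 in Osteoblast progenitor and at most 6.10 in the MSC and adipocyte classes. It was 5.85 higher than the mean (SE 0.29, edgeR adjusted p = 8.59e-31). The samples of the class agreed for Timp1 and Postn, but among libraries Postn ran unevenly, at 1646 raw CPM in library 1.1 and 257 in library 1.2, and without library 1.1 its difference from Osteoblast progenitor was 1.07, against 1.86 with all libraries. Wif1, a secreted Wnt inhibitor (chromosome 10, 121034004 to 121100642), had 1563 and 1916 CPM, against 2064 and 2446 in Osteoblast progenitor. It was 2.01 higher than the mean (SE 0.14, edgeR adjusted p = 3.24e-21), while against Osteoblast progenitor the difference of −0.35 (SE 0.15, edgeR adjusted p = 0.147) did not pass. With library totals as the only scaling Wif1 was lower than Osteoblast progenitor, at −0.52 (edgeR adjusted p = 0.0378), and it was at −0.44 (edgeR adjusted p = 0.0478) without the 6 cells of osteogenic fate described below, both settings added after seeing the data.

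Mmp9, gelatinase B (chromosome 2, 164940326 to 164955850), differed from the other markers in that few cells carried it. It had 425 and 824 CPM in the class, against 3.67 and 72.6 in Osteoblast progenitor and at most 34.0 in the MSC and adipocyte classes, and was 6.61 higher than the mean (SE 0.36, edgeR adjusted p = 4.19e-28). Its 123 counts came from 16 of the 91 cells, and 1 cell of library 2.2 held 61.8% of them. That cell also had 54 counts of Mmp13 and none of the osteoclast genes Ctsk and Acp5. Without it Mmp9 was 5.40 higher than the mean (edgeR adjusted p = 4.83e-13) and 2.84 higher than Osteoblast progenitor (edgeR adjusted p = 4.84e-04), against 4.00 with it. Leaving out library 2.2 gave 5.36 and 2.76, and leaving out library 2.3 gave 5.76 against Osteoblast progenitor.

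**Figure D1:**
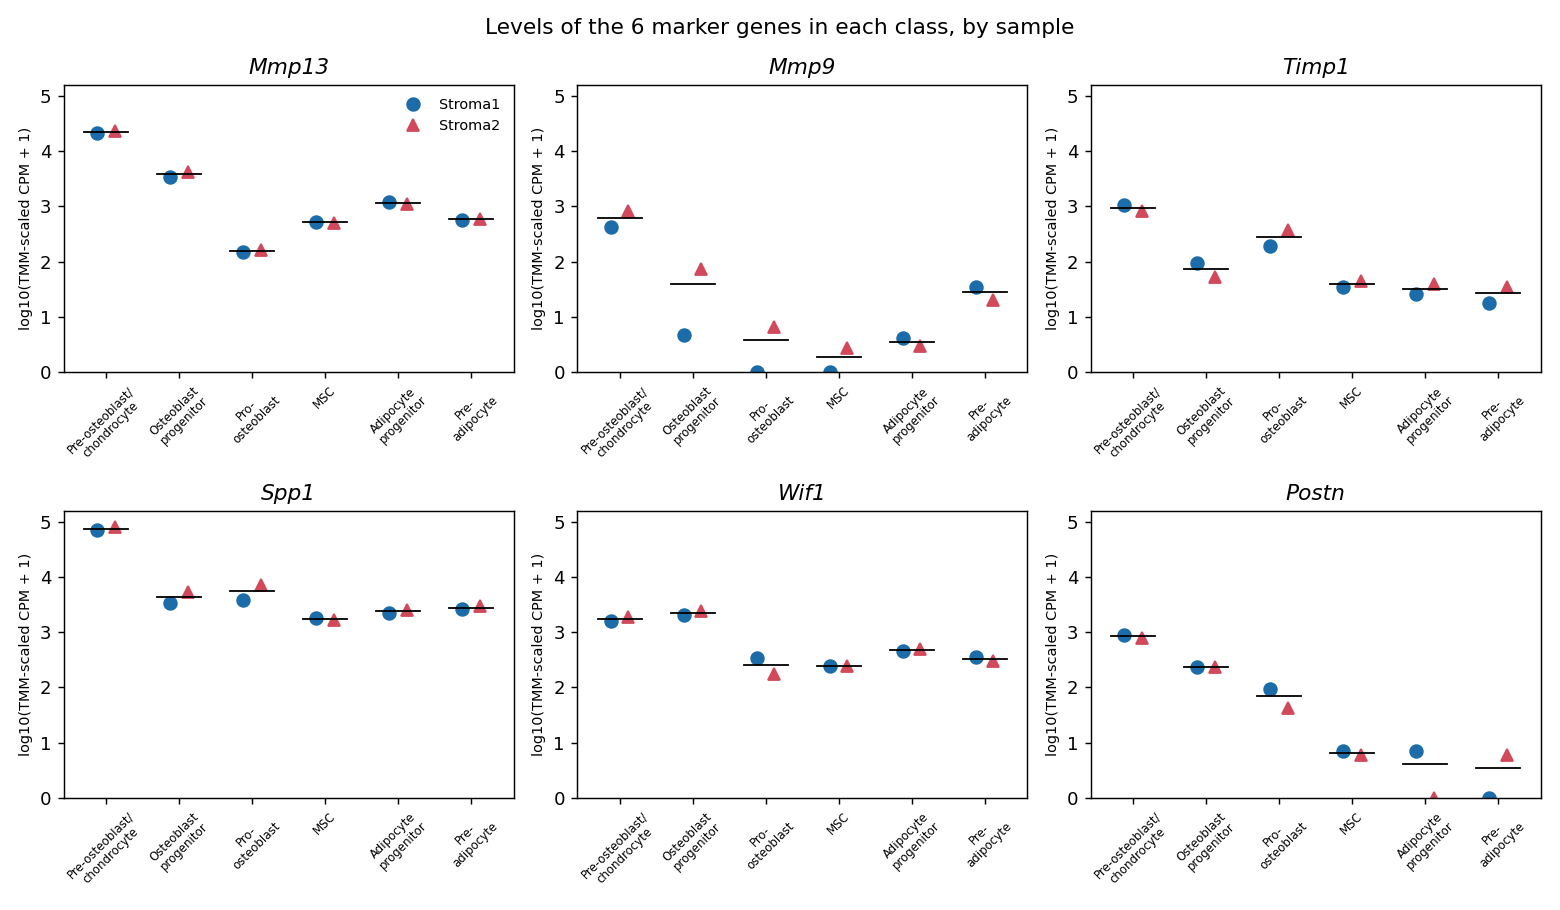
Levels of the 6 markers in each of the 6 tested classes, with 1 point per sample (log10 of TMM-scaled CPM plus 1) and a bar at the mean of the 2 samples. Mmp13 and Spp1 reach 21410 to 78730 CPM in the class, while Wif1 is at a like level in Osteoblast progenitor (2064 and 2446 CPM).

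In single cells the markers were seen together more often than in Osteoblast progenitor. At least 4 of the 6 had a count in 19 of 25 cells (76.0%, exact interval 54.9 to 90.6) and 34 of 66 cells (51.5%, 38.9 to 64.0) of the class, against 24 of 144 (16.7%) and 33 of 260 cells (12.7%) of Osteoblast progenitor. The median depths differed, at 2107 and 1440 counts per cell in the class and 1514 and 1199 in Osteoblast progenitor. With every cell thinned to 500 counts the shares were 40% and 22.7% in the class, against 4.17% and 4.23% in Osteoblast progenitor. The class thus kept the higher share at equal depth in both samples. These shares and intervals, and the detection shares below, count cells with a recurring barcode (25 of the 66 in Stroma2) as separate cells.

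Mmp13 had a count in 96.0% and 86.4% of cells of the class, against 58.3% and 63.1% in Osteoblast progenitor and 27.5% and 28.2% in MSC (median depths 1378 and 1160). Thinned to 500 counts, Mmp13 was found in 96.0% and 84.8% of the class and 16.3% and 17.2% of MSC. Spp1 had a count in 100% and 95.5% of cells of the class, but also in 67.7% and 59.1% of MSC, so its level separated the classes better than its detection. Spp1 took a median of 6.92% and 5.63% of the counts of a cell, with highest values of 16.0% and 22.8%, against medians of 0.221% and 0.298% in Osteoblast progenitor. For Mmp13 the medians were 2.22% and 1.72% in the class, against 0.0914% and 0.146% in Osteoblast progenitor. Spread within the class was wide, since 10 of 91 cells had no Mmp13 count and 3 had no Spp1 count.

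**Figure D2:**
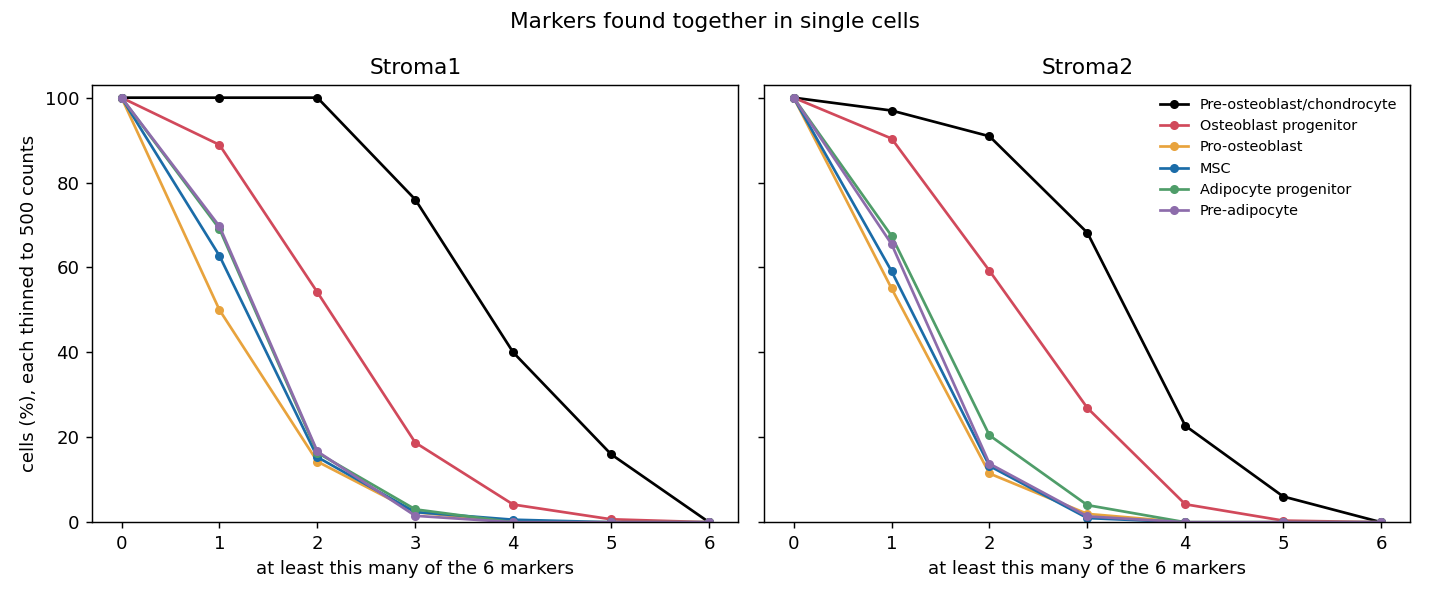
Percent of cells with a count of at least k of the 6 markers (x axis, k) after thinning each cell to 500 counts, drawn per sample. At 4 or more markers the class holds 40% and 22.7% of its cells, against 4.17% and 4.23% in Osteoblast progenitor.

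Tests of 6229 genes set the sums of the class against the mean of the other 5 classes, against Osteoblast progenitor, which precedes it on the authors' chondrocyte path, and against Pro-osteoblast. By edgeR's quasi-likelihood test (adjusted p under 0.05), 431 genes (6.92%) were higher and 326 (5.23%) lower than the mean. Against Osteoblast progenitor 288 (4.62%) were higher and 292 (4.69%) lower, and against Pro-osteoblast 513 (8.24%) were higher and 561 (9.01%) lower. The medians over all genes were −0.06, −0.05 and −0.06. Collagen transcripts take a large part of the counts of Pro-osteoblast, and the TMM factors correct for such shares. With library totals as the only scaling, 521 genes were higher and 244 lower than the mean, 209 and 381 against Osteoblast progenitor, and 1870 and 194 against Pro-osteoblast, where the median of all genes was then 0.97. Differences from Pro-osteoblast below are therefore relative to the TMM scale, and counts for gene lists under library totals follow in brackets where their balance turns. Each bracket is to be read beside the 1870 genes higher and 194 lower of all 6229, a shift of the whole scale. The 3 comparisons share the samples of the class, so their counts are not independent of each other.

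Among proteases that cut matrix, 6 of 21 tested were higher and 4 lower than the mean (median −0.37). The 6 were Mmp13, Mmp9, Mmp2, Mmp14, Adam12 and Fap. Mmp2, gelatinase A, had 918 and 824 CPM in the class, against 301 and 284 in Osteoblast progenitor, 1855 and 2261 in Pro-osteoblast and at most 56.1 in the MSC and adipocyte classes. It was 2.70 higher than the mean (SE 0.19, edgeR adjusted p = 8.97e-21) and 1.56 higher than Osteoblast progenitor. Against Pro-osteoblast Mmp2 was lower, at −1.30, a call lost with library totals (−0.27). The class thus stood between these 2 classes for Mmp2. Mmp14, the membrane protease that activates Mmp2, had 339.9 and 563 CPM, against 206 and 345 in Osteoblast progenitor and 18.7 and 60.6 in Pro-osteoblast, and was 2.27 higher than the mean (SE 0.26, edgeR adjusted p = 1.34e-11). The metalloprotease Adam12, an example chosen after its values were seen, was 1.49 higher than the mean (SE 0.29, edgeR adjusted p = 3.6e-05). Adamts2, which trims procollagen, was lower than the mean, at −0.86 (SE 0.18, edgeR adjusted p = 0.000234), and Adamts1 was lower, at −2.29 (SE 0.42, edgeR adjusted p = 1.24e-05; −3.36 without library 2.1) with 0 and 84.0 CPM in the class and up to 2039 CPM in Pre-adipocyte. Ctsk, the osteoclast collagenase, had 153 and 177 CPM in the class, against 213 and 184 in Osteoblast progenitor.

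Of 12 tested protease inhibitors 5 were higher, 1 was lower and 6 were not called against the mean (median 0.42), and 4 were higher and 1 lower than Osteoblast progenitor. Serpine2, an inhibitor of thrombin and plasminogen activators, had 9771 and 8134 CPM in the class, against 3941 and 3534 in Osteoblast progenitor and 703 and 395 in Pro-osteoblast. It was 1.72 higher than the mean (SE 0.10, edgeR adjusted p = 4.44e-25), and both samples of the class lay above those of the other 5 classes tested. Timp2 had 1071 and 1101 CPM, against 749 and 776 in Osteoblast progenitor, and was 0.86 higher than the mean (SE 0.15, edgeR adjusted p = 3.44e-06). Timp3, at 339.9 and 471 CPM, was 1.45 higher than the mean (SE 0.24, edgeR adjusted p = 1.77e-06), while against Osteoblast progenitor the difference of 0.63 did not pass (edgeR adjusted p = 0.139). The inhibitor of complement C1, Serping1, ran the other way, with 221 and 311 CPM against 3166 and 2769 in Osteoblast progenitor, and was lower than the mean, at −3.15 (SE 0.22, edgeR adjusted p = 1.00e-21).

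Genes that control mineral set the class apart from Osteoblast progenitor. Of 22 tested genes of bone matrix and mineral, 9 were higher and 2 lower than in Osteoblast progenitor (median 1.0), and 10 were higher and none lower than the mean (median 0.86). With genes at 0 in a class held at 3 counts over both samples, a bound used throughout for the main fit, these medians were 1.46 and 0.77. The higher genes of both comparisons include 3 with few counts in the class, most of them in Stroma2. These were Bglap (0 and 16 counts), Bglap2 (1 and 12) and Ifitm5 (3 and 10). The direction of Bglap turned with a replicate left out, as given below. Dmp1, a matrix protein of late osteoblasts and osteocytes, had 1733 and 1513 CPM in the class, against 7.34 and 9.08 in Osteoblast progenitor, 468 and 1143 in Pro-osteoblast and 3.05 to 38.9 in the MSC and adipocyte classes. It was 7.58 higher than Osteoblast progenitor (SE 0.37, edgeR adjusted p = 5.94e-31; 6.96 without library 1.2) and 6.17 higher than the mean. Fam20c, the kinase that phosphorylates Spp1 and Dmp1 proteins, had 679.7 and 571 CPM in the class, against 18.4 and 20.4 in Osteoblast progenitor and 74.9 and 127 in Pro-osteoblast. Both genes were thus near 0 in Osteoblast progenitor. Fam20c was 4.96 higher than Osteoblast progenitor (SE 0.43, edgeR adjusted p = 2.05e-16) and 2.45 higher than Pro-osteoblast (SE 0.35, edgeR adjusted p = 1.73e-08). The excess of Dmp1 over Pro-osteoblast was smaller, 0.92 (SE 0.20, edgeR adjusted p = 0.000264), and its call was lost without library 1.2 (0.63). Dmp1 had 2859 raw CPM in that library and 859 to 2022 in the others.

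Ank, which exports pyrophosphate, and Enpp1, the ectoenzyme that makes it, were both higher than in Osteoblast progenitor and in Pro-osteoblast. In Pro-chondrocyte, described below, Ank had more raw CPM than in the class. Ank had 1122 and 597 CPM in the class, against 33.05 and 40.9 in Osteoblast progenitor and 216 and 113 in Pro-osteoblast, and was 4.40 higher than Osteoblast progenitor (SE 0.36, edgeR adjusted p = 1.28e-17), or 3.73 without library 1.2. Enpp1 had 442 and 378 CPM in the class, against 18.4 and 99.9 in Osteoblast progenitor and 0 and 9.86 in Pro-osteoblast. It was 2.64 higher than Osteoblast progenitor (SE 0.38, edgeR adjusted p = 6.75e-08), or 2.05 without library 1.2, and 5.60 higher than Pro-osteoblast, or 6.91 without library 2.2. Ibsp had 4520 and 4420 CPM in the class, against 2016 and 1788 in Osteoblast progenitor, and was 1.24 higher (SE 0.15, edgeR adjusted p = 1.28e-10). Alpl, the alkaline phosphatase that breaks pyrophosphate down, had 612 and 765 CPM, against 929.2 and 910.0 in Osteoblast progenitor and 824 and 947 in Pro-osteoblast, and passed neither of these tests.

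Osteocalcin set the class apart from Pro-osteoblast. Bglap had 0 and 135 CPM in the class, against 9734 and 7603 in Pro-osteoblast, and was lower, at −6.54 (SE 0.26, edgeR adjusted p = 2.08e-37), or −7.33 without library 2.1. Its near-identical copies Bglap2 and Bglap3 can share reads with it, so the split among the 3 is uncertain. Sparc, or osteonectin, had 11100 and 9008 CPM in the class, against 96500 and 127400 in Pro-osteoblast, and was lower, at −3.49 (SE 0.17, edgeR adjusted p = 3.12e-31). Smpd3, a sphingomyelinase needed for mineralization, had no count in the class, against 665 and 798 CPM in Pro-osteoblast. Held at 3 counts for both samples together, the class was at least 43.8-fold lower. Phospho1, which frees phosphate for mineral, had no count either and was at least 5.48-fold lower by that bound (edgeR adjusted p = 0.00321; DESeq2 did not call it, adjusted p = 0.579). In all, 5 of the 22 genes were higher and 12 lower than in Pro-osteoblast (median −1.89; 9 and 9 under library totals). Mgp, an inhibitor of calcification, was among those higher, by 5.05 (SE 0.36, edgeR adjusted p = 2.25e-21).

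Col1a1 lay between Osteoblast progenitor and Pro-osteoblast. Col1a1 had 17230 and 15400 CPM in the class, against 992 and 2869 in Osteoblast progenitor, 353000 and 413100 in Pro-osteoblast and 187 to 711 in the MSC and adipocyte classes. It was 3.19 higher than Osteoblast progenitor (SE 0.33, edgeR adjusted p = 1.1e-12) and lower than Pro-osteoblast, at −4.53 (SE 0.35, edgeR adjusted p = 1.2e-19). Col1a2, with 20530 and 18390 CPM in the class, against 4980 and 7260 in Osteoblast progenitor, was 1.68 higher than that class (SE 0.30, edgeR adjusted p = 1.37e-05) and lower than Pro-osteoblast, at −4.33. Col13a1, a membrane collagen, had 204 and 177 CPM, against 0 and 18.2 in Osteoblast progenitor and 618 and 669 in Pro-osteoblast. It was 4.04 higher than Osteoblast progenitor (SE 0.55, edgeR adjusted p = 1.95e-08; 8.72 without library 2.2), and DESeq2 did not call it (adjusted p = 0.626). The 8.72 comes from a fit with no 3-count bound, and Osteoblast progenitor was near 0 with all libraries.

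Of 12 fibrillar and bone collagens 4 were higher and 2 lower than in Osteoblast progenitor (median 0.65, and 0.99 at their bounds), and none was higher and 9 lower than in Pro-osteoblast (median −3.16; 2 and 7 under library totals). Col11a1, a minor fibrillar collagen chosen after its values were seen, had 17.0 and 109 CPM in the class, against 5284 and 8024 in Pro-osteoblast, and was lower, at −6.48 (SE 0.25, edgeR adjusted p = 9.63e-38). Col4a1, a basement membrane collagen, had 102 and 252 CPM in the class, against 621 and 529 in Osteoblast progenitor and 46.8 and 14.1 in Pro-osteoblast, and was lower than Osteoblast progenitor, at −1.49 (SE 0.27, edgeR adjusted p = 1.59e-05) and 3.40 higher than Pro-osteoblast. Of 7 network and beaded collagens none was higher and 5 were lower than in Osteoblast progenitor, and 6 were higher and 1 lower than in Pro-osteoblast. Against Pro-osteoblast, leaving out library 1.1 gave 4.03 for Col4a1.

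Genes that fold and crosslink collagen were mostly lower than in Pro-osteoblast. Of 37 tested genes of collagen processing and secretion, 26 were lower and 1 was higher than in Pro-osteoblast (median −1.78; 17 and 6 under library totals), while 4 were higher and none lower than in Osteoblast progenitor. Lox, which crosslinks collagen, had 85.0 and 336 CPM in the class, against 2764 and 3615 in Pro-osteoblast, 422 and 397 in Osteoblast progenitor and 579 to 765 in the MSC and adipocyte classes. Lox was lower than Pro-osteoblast, at −3.72 (SE 0.22, edgeR adjusted p = 5.29e-26) and lower than the mean, at −1.77 (SE 0.23, edgeR adjusted p = 2.42e-09). The procollagen chaperone Serpinh1 had 2668 and 3109 CPM, against 2182 and 2487 in Osteoblast progenitor and 13500 and 14430 in Pro-osteoblast, and was lower than the last, at −2.26 (SE 0.14, edgeR adjusted p = 4.34e-24). Hspa5, the ER chaperone BiP, was lower than the mean, at −0.92 (SE 0.16, edgeR adjusted p = 4.98e-06), a mean that holds 4036 and 3692 CPM in Pre-adipocyte beside 731 and 790 in the class.

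Cells of the class differed widely in collagen type I. Per cell, Col1a1 took a median of 0.825% and 0.512% of the counts in the class, but up to 17.6% and 26.1%, against medians of 20.6% and 20.5% in Pro-osteoblast. In 8 of the 91 cells Col1a1 exceeded Mmp13 and Spp1 together. The authors' fate probabilities had a chondrogenic maximum in 85 cells and an osteogenic one in 6, 1 in Stroma1 and 5 in Stroma2. Those 6 cells held 791 of the 2847 Col1a1 counts of the class (194400 raw CPM, against 12030 in the other 85 cells), no Mmp13 count and 8 of 13459 Spp1 counts. The Col1a1 counts lay in 5 of the 6. Tenascin C (Tnc) was at 738 raw CPM in them and 9416 in the others. Cxcl12 was at 8850 raw CPM in them, from 2 of the 6 cells, and 3049 in the others. However, 34 of its 36 counts in the 6 cells lay in 1 cell of library 1.2. That cell had 511 counts in all and no Col1a1 count. The fates were computed by the authors from the same cells, so these are descriptions. Without the 6 cells, left out after seeing the data, the class had 401 genes higher and 391 lower than the mean, and Col1a2, at 0.67 with all cells (SE 0.22, edgeR adjusted p = 0.0297), was at 0.34 (edgeR adjusted p = 0.415). Col1a2 was also not called against the mean with each barcode kept once (0.41, edgeR adjusted p = 0.271), or without library 1.2, 2.1 or 2.3 (0.35, 0.63 and 0.63).

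**Figure D3:**
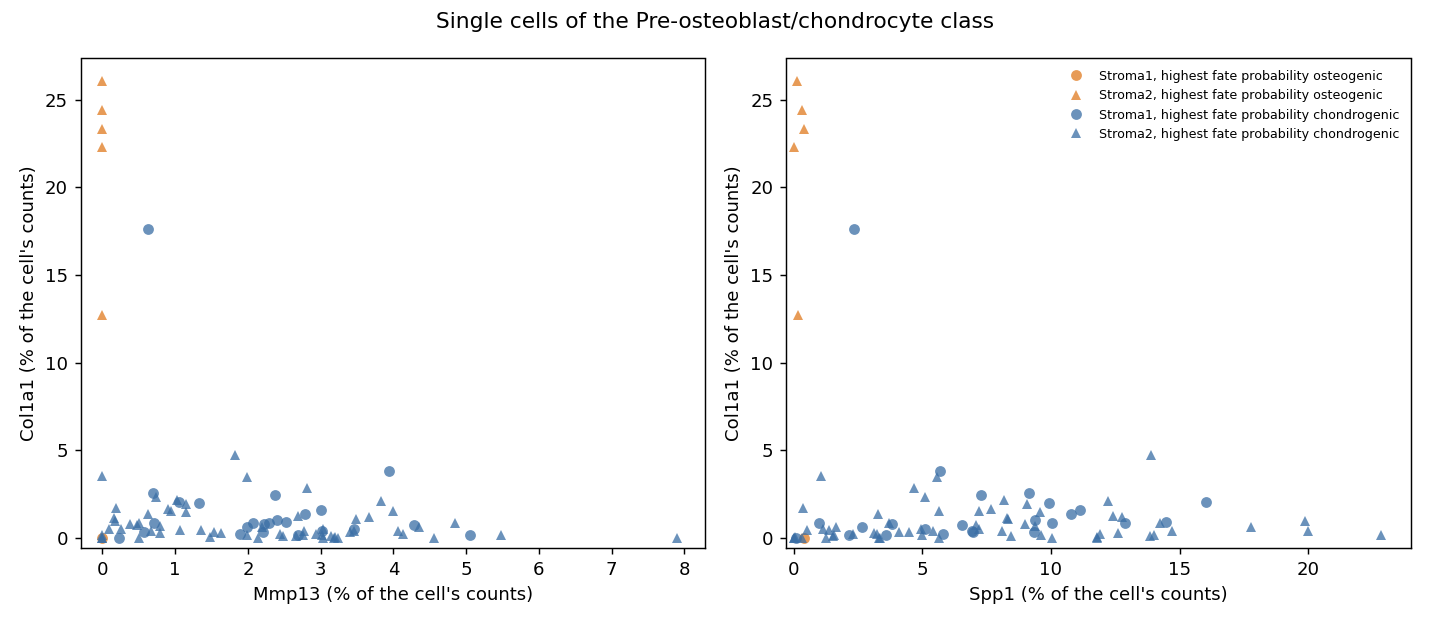
Each point is 1 of the 91 cells: Col1a1 against Mmp13 and against Spp1, each as percent of the cell's counts, with colour for the higher deposited fate and shape for the sample. The 6 cells with an osteogenic fate have no Mmp13 count; Col1a1 reaches 26.1% in one of them from Stroma2, while the highest cell of Stroma1 (17.6%) has a chondrogenic fate.

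The authors placed 88 of the 91 cells on their chondrocyte path, 26 on their osteoblast path, 23 of these on both, and none on the adipocyte path. In comparison, 365 of 404 cells of Osteoblast progenitor had a chondrogenic maximum, as did 14 of 14 Pro-chondrocyte cells, while all 347 Pro-osteoblast cells had an osteogenic one. The chondrogenic probability had medians of 0.380 and 0.379 in the class, between 0.342 and 0.343 in Osteoblast progenitor and 0.390 and 0.392 in Pro-chondrocyte, so the margins are narrow. Rank on the chondrocyte path, scaled from 0 to 1, had medians of 0.964 and 0.967 in the class, against 0.804 and 0.836 in Osteoblast progenitor. On the osteoblast path were 5 cells in Stroma1 and 21 in Stroma2, of which 5 and 18 were also on the chondrocyte path. All cells on the osteoblast path had 14560 and 7423 raw CPM of Mmp13, against 24100 and 27350 in the cells off it (20 and 45). Col1a1 had 73080 and 37560 raw CPM on that path, against 9874 and 8931 off it, and few cells carried the first values. In Stroma1 1 cell held 452 of the 542 counts on the path, and without it the level was 18540 raw CPM. In Stroma2 the 5 cells of osteogenic fate held 791 of the 1002 counts, and without them the level was 9127 raw CPM. For Mmp13, 1 cell held 80 of the 108 counts on the path in Stroma1.

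Cartilage genes were scarce. Of 28 listed genes of cartilage matrix and its regulators 8 passed the count filter. Of these 3 (Col2a1, Trps1 and Ibsp) were higher and none lower than the mean. Ibsp, bone sialoprotein, is also counted above among the genes of bone matrix and mineral. Col2a1, the collagen of cartilage, had 255 and 42.0 CPM in the class, against 11.02 and 0 in Osteoblast progenitor and 609 and 1523 in Pro-osteoblast. It was 4.67 higher than Osteoblast progenitor (SE 0.84, edgeR adjusted p = 1.58e-05; 7.35 without library 1.1) and lower than Pro-osteoblast, at −3.30 (SE 0.37, edgeR adjusted p = 4.15e-12; −4.32 without library 1.1 and −2.71 without library 2.3). Only 20 counts in 11 cells stand behind Col2a1, 8 of them in 1 cell, and DESeq2 did not call it against Pro-osteoblast (adjusted p = 0.168). Library 1.1 held 11 of the 20 counts. The larger 7.35 without that library is not firmer, since that fit held no 3-count bound and Osteoblast progenitor was near 0. Sox9, the regulator of chondrocytes, had 51.0 and 33.6 CPM, against 36.7 and 61.3 in Osteoblast progenitor, and the collagen of hypertrophic cartilage, Col10a1, had 4 counts in 1 cell. Against Pro-osteoblast 2 of the 8 genes (Comp and Sox9) were higher and 2 (Col2a1 and Pth1r) lower, beside 8.24% and 9.01% over all genes. Counts of the higher 2 in the class were few, 3 and 4 for Sox9 and 1 and 4 for Comp.

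The 14 Pro-chondrocyte cells, 4 in Stroma1 and 10 in Stroma2, were too few for a test and are given as raw CPM beside the class. Spp1 was at 74070 and 78250 raw CPM in the class, against 207600 and 203100 in Pro-chondrocyte. Dmp1 was at 1847 and 1503 in the class, against 23090 and 13170 in Pro-chondrocyte, and the osteocyte gene Mepe was at 0 and 117 in the class, against 24000 and 12140. Tnc was at 9272 and 9188 in the class, against 10640 and 4531, Vdr at 779 and 927, against 1358 and 428, and Lox at 90.5 and 334, against 1811 and 1710. Ank was at 1195 and 593 in the class, against 3849 and 3078, and Timp2 at 1141 and 1094, against 2490 and 2308. Spp1, Dmp1, Mepe, Lox, Ank and Timp2 had more raw CPM in Pro-chondrocyte than in the class in both samples. Mmp13 showed no such order, at 22820 and 22910 in the class, against 4528 and 27100, nor did Enpp1, at 471 and 376, against 0 and 940.5. Mmp9 and Postn had no count in Pro-chondrocyte, nor did Col2a1, Acan and Sox9, and Wif1 was at 0 and 85.5 raw CPM there.

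Among matricellular proteins, which bind matrix and cell receptors, 5 of 16 were higher and 3 lower than the mean (median 0.20). Tenascin C, a large matrix glycoprotein encoded by Tnc, had 8701 and 9244 CPM in the class, against 6515 and 7194 in Osteoblast progenitor, 394 and 248 in Pro-osteoblast and 2507 to 3843 in the MSC and adipocyte classes. It was 1.97 higher than the mean (SE 0.10, edgeR adjusted p = 7.11e-29) and 5.03 higher than Pro-osteoblast. Ctgf, a connective tissue growth factor, had 2175 and 1790 CPM in the class, against 995 and 1307 in Osteoblast progenitor and 65.6 and 33.8 in Pro-osteoblast, and was 5.68 higher than Pro-osteoblast (SE 0.26, edgeR adjusted p = 1.57e-33). Thbs1 and Fbln5 were low. Thbs1, thrombospondin 1, had 17.0 and 33.6 CPM, against 675 and 1022 in Pro-osteoblast, and was lower, at −4.99 (SE 0.43, edgeR adjusted p = 6.77e-17). Fbln5, an elastic fibre protein, had 136 and 151 CPM, against 1234 and 1176 in Osteoblast progenitor, and was lower, at −3.03 (SE 0.26, edgeR adjusted p = 6.44e-17). Fn1, or fibronectin, was 1.79 higher than the mean (SE 0.24, edgeR adjusted p = 7.85e-09), and DESeq2 did not call it (adjusted p = 0.0618).

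Of 8 small proteoglycans, which coat collagen fibrils or fill the matrix, 3 were higher and 4 lower than the mean. Lum, lumican, had 527 and 630.2 CPM in the class, against 345 and 456 in Osteoblast progenitor and 2970 and 3151 in Pro-osteoblast. It was 1.71 higher than the mean (SE 0.22, edgeR adjusted p = 9.23e-10) and lower than Pro-osteoblast, at −2.39. Fmod, fibromodulin, was 2.13 higher than the mean (SE 0.37, edgeR adjusted p = 3.82e-06). Podn, podocan, was lower, with no count in the class, against 69.8 and 70.3 CPM in Osteoblast progenitor, at least 4.08-fold more. Of 19 adhesion genes and integrins 7 were higher and 5 lower than the mean. Itgb5, an integrin chain of receptors for Spp1 and vitronectin, had 255 and 445 CPM, against 80.8 and 65.8 in Osteoblast progenitor and 112 and 76.1 in Pro-osteoblast. It was 2.66 higher than the mean (SE 0.29, edgeR adjusted p = 5.7e-12), 2.35 higher than Osteoblast progenitor and 2.14 higher than Pro-osteoblast. Cdh15, a cadherin, was 4.8 higher than the mean (SE 0.70, edgeR adjusted p = 6.45e-08), while Vcam1 was lower, at −2.27 (SE 0.23, edgeR adjusted p = 1.31e-13).

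Of 19 osteoblast transcription factors 4 (Dlx3, Mef2c, Sp7 and Runx2) were higher and none lower than the mean (median 0.29, and 0.17 at their bounds). The directions of Dlx3 and Runx2 in that comparison turned with 1 replicate left out, as given below. Against Osteoblast progenitor 2 of the 19, Mef2c and Dlx3, were higher and none lower (median −0.13). The 5 counts of Dlx3 in the class all came from library 2.1, and without that library its difference was −0.023. Runx2 had 221 and 639 CPM in the class, against 253 and 354 in Osteoblast progenitor and 403 and 365 in Pro-osteoblast. The samples of the class differed more for Runx2 than those of the other classes, and against Osteoblast progenitor the difference of 0.61 did not pass (edgeR adjusted p = 0.139). Sp7, which acts after Runx2, had 187 and 159.7 CPM, against 180.0 and 186 in Osteoblast progenitor and 515 and 466 in Pro-osteoblast, and was lower than Pro-osteoblast, at −1.52 (SE 0.31, edgeR adjusted p = 0.000102; −0.50 and no longer called with library totals). Mef2c, a regulator of hypertrophic chondrocytes and osteocytes, had 221 and 177 CPM, against 51.4 and 59.0 in Osteoblast progenitor, and was 1.77 higher (SE 0.41, edgeR adjusted p = 0.000901). Against Pro-osteoblast 3 of the 19 factors were higher and 6 lower (5 and 2 under library totals). The shares over all 6229 genes were 8.24% higher and 9.01% lower, and under library totals 1870 genes were higher and 194 lower.

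Of 20 Wnt pathway genes 3 were higher and 4 lower than the mean. Besides Wif1, the membrane receptor Lrp4 had 374 and 269 CPM in the class, against 88.1 and 129 in Osteoblast progenitor and 112 and 159 in Pro-osteoblast. Lrp4 was 2.85 higher than the mean (SE 0.33, edgeR adjusted p = 3.00e-11) and 1.48 higher than Osteoblast progenitor (SE 0.35, edgeR adjusted p = 0.00171). Of 29 BMP and TGF-beta genes 1 was higher and 10 lower than the mean (median −0.96), and against Osteoblast progenitor 1 was higher and 12 lower (median −1.14), while 5 were higher and 2 lower than in Pro-osteoblast (median 0.22). Chrdl1, a BMP antagonist, had no count in the class, against 555 and 372 CPM in Osteoblast progenitor, at least 25.9-fold more. Grem1, another, had 34.0 and 16.8 CPM, against 349 and 263 in Osteoblast progenitor, and was lower, at −3.70 (SE 0.51, edgeR adjusted p = 2.13e-08; −4.36 without library 1.2). Bmp3, a BMP that restrains bone formation, was the member that stood higher, with 169.9 and 92.4 CPM, against 0 and 13.6 in Osteoblast progenitor, by 3.81 (SE 0.69, edgeR adjusted p = 1.45e-05), and its level in Pro-osteoblast was 272 and 265 CPM.

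In the list of hormone and growth factor signalling, the vitamin D receptor Vdr had 731 and 933 CPM in the class, against 95.5 and 134 in Osteoblast progenitor, 149.9 and 211 in Pro-osteoblast and 101 to 161 in the MSC and adipocyte classes. It was 2.67 higher than the mean (SE 0.20, edgeR adjusted p = 1.9e-20), 2.85 higher than Osteoblast progenitor and 2.15 higher than Pro-osteoblast, and both samples of the class lay above those of the other 5 classes tested. Of the 25 tested genes of this list 3 were higher and 9 lower than the mean (median −0.76, and −1.09 at their bounds), and 11 were higher and 4 lower than in Pro-osteoblast (0.87, and 1.32 at their bounds). Fgfr1, a receptor of fibroblast growth factors, was 1.15 higher than Osteoblast progenitor (SE 0.26, edgeR adjusted p = 0.000738). Igfbp5, a binding protein of insulin-like growth factors, had 306 and 193 CPM in the class, against 4760 and 4493 in Osteoblast progenitor and 505.9 and 219.8 in Pro-osteoblast, and was lower than the mean, at −4.16 (SE 0.24, edgeR adjusted p = 1.04e-26).

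Of 23 genes of adipocytes and leptin receptor cells 16 were lower and none higher than the mean (median −2.32), and against Osteoblast progenitor 16 were lower and 1 higher (median −2.66). Against Pro-osteoblast 8 were higher and 2 lower (median 0.70, and 1.29 at their bounds). Lpl, lipoprotein lipase, had 17.0 and 16.8 CPM in the class, against 3188 and 2390 in Osteoblast progenitor and 4589 and 4506 in MSC, and was lower than Osteoblast progenitor, at −7.30 (SE 0.42, edgeR adjusted p = 1.48e-26; −8.41 without library 2.2). Adipoq, adiponectin, had 34.0 and 0 CPM, against 1307 and 1003 in Osteoblast progenitor, and was lower, at −6.59 (SE 0.49, edgeR adjusted p = 1.16e-19; −11.6 in the fit without library 1.2, where the class had no count). The member higher than in Osteoblast progenitor was Cebpb, which acts early in adipocytes and also in osteoblasts, by 1.66 (SE 0.25, edgeR adjusted p = 3.19e-07). Of 18 niche factors, signals that keep blood stem and progenitor cells, 2 (Spp1 and Tnfsf11) were higher and 8 lower than the mean. Spp1 is the class marker given above, and Tnfsf11 was no longer higher once Pro-osteoblast was left out of the mean. The list had 8 genes higher and none lower than in Pro-osteoblast.

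Cxcl12, the chemokine that retains blood stem cells in marrow, had 3365 and 3017 CPM in the class, against 42550 and 37720 in Osteoblast progenitor and 54580 and 56270 in MSC. It was lower than Osteoblast progenitor, at −3.65 (SE 0.22, edgeR adjusted p = 1.4e-25). Kitl, the ligand of the receptor Kit, had 153 and 118 CPM, against 735 and 631 in Osteoblast progenitor, and was lower, at −2.37 (SE 0.30, edgeR adjusted p = 9.03e-10). For both genes, each sample of the class lay below each sample of Osteoblast progenitor. Against Pro-osteoblast both were higher, Cxcl12 by 0.95 (SE 0.24, edgeR adjusted p = 0.00139) and Kitl by 1.71 (SE 0.48, edgeR adjusted p = 0.00557). The call of Cxcl12 was lost without library 1.2 (0.50) or 2.3 (0.70), without the 6 cells of osteogenic fate (0.67), with each barcode kept once (0.79), with a minimum count of 30 (0.84), without mitochondrial counts (0.84) and by DESeq2 (adjusted p = 0.151), and that of Kitl without library 2.1 (1.21). Tnfsf11 (RANKL), which drives osteoclast formation, had 187 and 143 CPM in the class, against 69.8 and 111 in Osteoblast progenitor (edgeR adjusted p = 0.269). Pro-osteoblast had no Tnfsf11 count, so the class stood at least 39.5-fold higher than Pro-osteoblast. The complement genes C1s1, C2 and C3 had no count in the class, and Osteoblast progenitor held at least 13.6-fold more C1s1, 10.01-fold more C2 and 8.46-fold more C3.

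Immediate-early genes, whose transcription is switched on rapidly by signals or by tissue handling, were called higher more often than lower against both other osteogenic classes. Of 24 tested 10 were higher and none lower than in Osteoblast progenitor (median 0.84), and 17 were higher and 1 lower than in Pro-osteoblast (median 1.76). Against the mean, which holds both adipocyte classes, 1 was higher and 3 lower (median −0.22). Fos had 3093 and 4067 CPM in the class, against 1748 and 2231 in Osteoblast progenitor and 525 and 559 in Pro-osteoblast, and was 0.86 higher than Osteoblast progenitor (SE 0.16, edgeR adjusted p = 2.38e-05). The RNA-decay factor Zfp36 had 765 and 899 CPM, against 331 and 515 in Osteoblast progenitor, and was 0.95 higher (SE 0.21, edgeR adjusted p = 0.000702). Median counts per cell were 2107 and 1440 in the class, 1514 and 1199 in Osteoblast progenitor and 4422 and 4201 in Pro-osteoblast, and the part of depth in these genes was not tested.

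Most counts of the mitotic genes named here came from few cells of the class. Of 16 tested cell cycle genes 9 were higher and 1 lower than the mean (median 1.76). Ccnd1, the cyclin of the early cell cycle, had 357 and 319 CPM in the class, against 29.4 and 15.9 in Osteoblast progenitor, 9.37 and 26.8 in Pro-osteoblast and at most 3.54 in the MSC and adipocyte classes. It was 3.95 higher than Osteoblast progenitor (SE 0.59, edgeR adjusted p = 1.81e-07) and was spread over 28 cells. Genes of division were found in fewer cells. A count of at least 2 of the 9 mitotic genes in the table was found in 7 of 91 cells of the class, against 5 of 404 in Osteoblast progenitor, 5 of 347 in Pro-osteoblast and 1 of 1317 in MSC. Those 7 cells held 85.7% of the Ube2c counts, 87.5% of Cdk1 and 100% of Top2a and Birc5, but 10.2% of Ccnd1. Ube2c, an enzyme that marks mitotic proteins for decay, had 187 and 84.0 CPM in the class, against 11.02 and 11.35 in Osteoblast progenitor, and was 3.46 higher (SE 0.88, edgeR adjusted p = 0.00326). In Stroma1, however, 1 of the 7 cells, from library 1.2, held 10 of the 11 Ube2c counts of the class. It also held all 9 counts of Cdk1, 4 of Top2a and 6 of Birc5 in that sample. The Stroma1 levels of these mitotic genes thus rest on about 1 cell. Without the 7 cells 2 of 10 genes that still passed the filter were higher and 2 lower than the mean.

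Of 14 glycolysis and hypoxia genes 1 was higher than the mean, and of 31 respiratory chain genes 4 were, with none lower in either list, beside 6.92% higher and 5.23% lower over all genes. The 4 calls (Ndufb2, Uqcrq, Atp5b and Cox4i1) were each lost on leaving out at least 1 library, and that of Atp5b also with each barcode kept once. Cox4i1, a subunit of cytochrome oxidase, was 0.59 higher (SE 0.15, edgeR adjusted p = 0.00324), and 0.40 without library 1.1. Against Pro-osteoblast none of the 31 was higher and 3 were lower (12 and 1 under library totals). Over all 6229 genes 8.24% were higher and 9.01% lower in that comparison, and under library totals 1870 genes were higher and 194 lower. Of 19 interferon and antigen presentation genes none was higher and 6 were lower than in Osteoblast progenitor (median −1.06), while 7 were higher and none lower than in Pro-osteoblast (median 1.0, and 0.86 at their bounds). H2-K1, a class I antigen molecule whose reads can be shared with H2-D1, had 1156 and 1067 CPM in the class, against 4187 and 3772 in Osteoblast progenitor, and was lower, at −1.84 (SE 0.17, edgeR adjusted p = 2.31e-15). B2m, its light chain, was lower, at −1.13 (SE 0.15, edgeR adjusted p = 4.38e-09).

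Several of the genes that led the comparisons belong to no list. Aqp1, a water channel, had 221 and 118 CPM in the class, against 7.34 and 18.2 in Osteoblast progenitor and 131 and 154 in Pro-osteoblast, and was 5.24 higher than the mean (SE 0.62, edgeR adjusted p = 7.83e-11; 5.87 without library 2.2). Mgll, monoglyceride lipase, had 289 and 277 CPM, against 44.1 and 102 in Osteoblast progenitor and at most 9.71 in the MSC and adipocyte classes, and was 4.23 higher than the mean (SE 0.41, edgeR adjusted p = 2.59e-14; 4.89 without library 2.2). Cd55, which protects cells from complement, was 4.21 higher than the mean (SE 0.66, edgeR adjusted p = 4.15e-07). Limch1 and Angpt4 had few counts in Pro-osteoblast. Limch1 had 799 and 832 CPM in the class, against 915 and 942 in Osteoblast progenitor and 28.1 and 19.7 in Pro-osteoblast, and Angpt4, a ligand of Tie receptors, had 459 and 277 CPM, against 375 and 320.0 in Osteoblast progenitor and 9.37 and 1.41 in Pro-osteoblast.

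**Figure D4:**
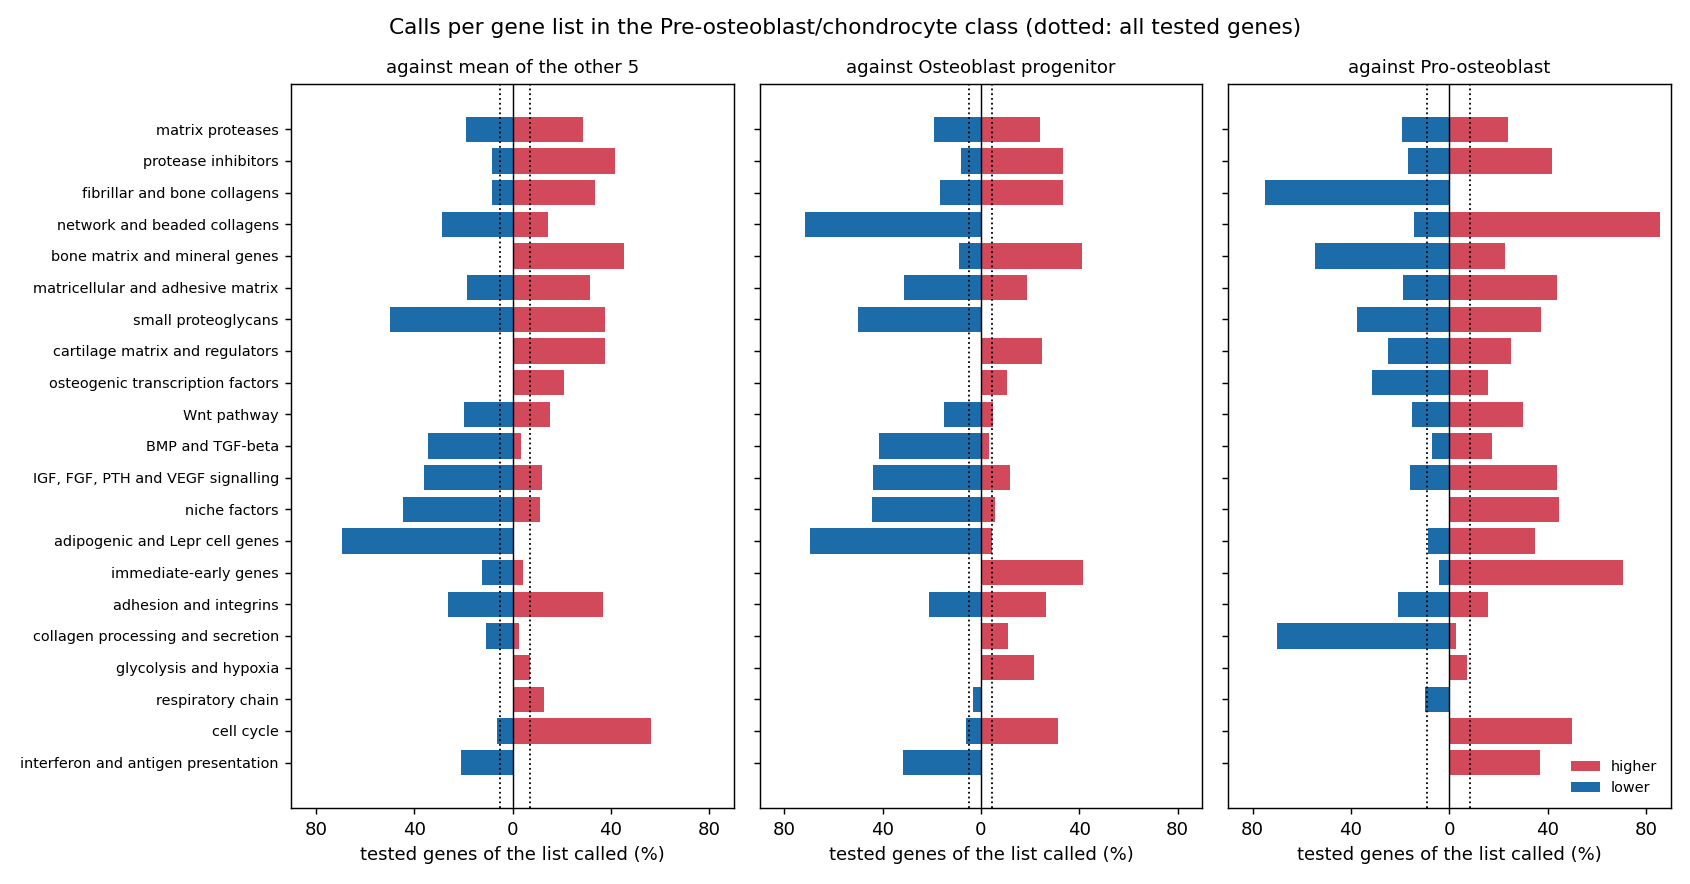
Percent of the tested genes of each list that were higher (right) or lower (left) in the class, for the 3 comparisons, with dotted lines at the percent over all 6229 genes (6.92% and 5.23% against the mean). Bone matrix genes lie far to the right against Osteoblast progenitor (9 of 22), and collagen processing genes far to the left against Pro-osteoblast (26 of 37).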

How the data were processed

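RNA was measured in 2 samples of sorted mouse bone marrow stroma. The deposited table holds the authors' counts for 25289 genes per barcode, with their labels of sample, library, filter and class. The submitters' processing notes name Bowtie 1.1.1 and GRCm38. How reads were counted, whether molecular identifiers were collapsed and which annotation served were not given in the sources used here. Fractions (fate probabilities, pseudotimes from 0 to 1 and the mitochondrial share) and a potential score, not reported here, were also deposited, per the file headers.

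Counts of passing cells were summed per sample and class. The 6 classes with at least 15 cells in each sample were fitted together in edgeR 4.0.16 (R 4.3.3; TMM, filterByExpr with a minimum count of 10, terms for class and sample, common dispersion 0.0155), leaving 6229 genes. Benjamini-Hochberg adjustment of the quasi-likelihood p-values ran over all of them. Because both classes of a comparison come from the same sample, the sample term pairs them. The standard error is the log2 fold change over the square root of F. In the main fit a class at 0 took a floor of 3 counts over both samples, and intervals and floors cover counting error only. Fits with a library left out took no floor. TMM factors ran from 0.506 to 1.25. CPM called raw has no such factor. Doublets were called with Scrublet in scanpy 1.11.5, which marked 49 passing cells, 1 of them in the class; they were kept in the main fit. The fit was tested on simulated counts.

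Class members and gene lists (21 lists, 387 genes tested) were chosen with earlier results of these data known. Named genes are the markers, the 12 highest and 12 lowest called genes of each comparison whose samples share a direction, with at least 10 counts per sample in the class (higher) or in the class compared with (lower), and up to 4 called genes per list and direction against the mean; of these the text gives the ones that describe the groups. Other list members were chosen after their values were seen. Alternatives were RLE factors, DESeq2 1.42.0, other filters, no sample term, each library, sample, doublet, recurring barcode or mitochondrial count left out, and other reference means. Library totals, and leaving out the cells with an osteogenic fate, the mitotic cells or the cell with most Mmp9, were added after seeing the data.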

Additional observations from a re-analysis of the deposited data

How the results depend on the processing

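Of the counts of called genes, those under these settings moved by over 1.5 times. With the DESeq2 Wald test 192 genes were lower than the mean of the other classes, 187 lower than Osteoblast progenitor and 371 lower than Pro-osteoblast. A mean without Pro-osteoblast gave 537 lower, all other cells summed gave 202 higher, and no low count filter gave 161 higher than Osteoblast progenitor. With library totals 1870 were higher and 194 lower than Pro-osteoblast. Leaving out each library gave 325 to 380 higher and 248 to 296 lower than the mean, 196 to 236 and 236 to 280 against Osteoblast progenitor, and 388 to 438 and 406 to 541 against Pro-osteoblast. With no replicate block (no sample term) the counts were 435 and 314, 288 and 289, and 518 and 569, and 9 calls of named genes were lost. With a sample left out no class had replicates, so those values have no test.

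Some directions turned. Against the mean, Dlx3 was at −2.94 without library 2.1 and between −2.36 and 4.86 with 1 replicate left out, where Runx2 ran between −0.021 and 1.18, Dkk1 between −2.16 and 5.07 and Bglap between −3.98 and 3.46. Without Pro-osteoblast in the mean, Tnfsf11 was at −0.11, Wisp2 at −0.24 and Steap4 at −0.15. With all other cells summed, Col1a1 was at −1.62, Col1a2 at −1.55, Col5a1 at −0.35, Ifitm5 at −0.95, Col2a1 at −0.44, Wisp2 at −0.44, Steap4 at −0.12 and Bglap at −4.15; Pro-osteoblast cells, which hold most collagen counts, then weigh by their number. Against Osteoblast progenitor, Dlx3 was at −0.023 without library 2.1 and between 0.0 and 7.43 with 1 replicate left out, where Bglap ran between −5.44 and 3.79. Against Pro-osteoblast, Fmod ran between −0.61 and 2.25 with 1 replicate left out, and with library totals Col3a1 was at 0.0085, Fgfr1 at 0.16 and Itgb1 at 0.44. The cause was not tested otherwise.

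Of the named results, each barcode kept once ended 15 calls and left the other 333 results on their side of the threshold, doublets left out ended 10, RLE factors 5 and DESeq2 50. No low count filter ended 27.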
